A study of Homo sapiens with 6 samples.

Results

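Ribosome biogenesis factors of the nucleolus were followed in MIA PaCa-2 cells, an established human pancreatic carcinoma line. The 45 members are the protein genes NCL, NPM1, NOLC1, TCOF1, MYBBP1A, PA2G4, GNL3, LYAR, DDX21, FBL, NOP56, NOP58, DKC1, GAR1, NHP2, NOP10, UTP3, UTP4, UTP15, UTP18, UTP20, WDR43, RRP9, NOP14, NOC4L, IMP3, IMP4, BYSL, DDX10, RRP12, NOP2, NOP16, WDR12, BOP1, PES1, WDR74, RRP1, RRS1, PPAN, GRWD1, NOC2L, NOC3L, NIP7, DDX18 and EXOSC5. They were chosen by name, with earlier results of these data known, and all 45 had a row among the 18268 of the deposited gene table. RNA was sequenced from cells with the pCDH vector (3 libraries) and from cells made to overexpress LINC00901, a long noncoding RNA (3 libraries), with total RNA as the starting material. Whether the libraries came from separate cultures, and whether the cells were pools or clones, is not given in the sources used here, so every p-value here reflects no more than the scatter among these 6 libraries, and that scatter may be technical. No row (0) named LINC00901, so its level was not analysed here and the groups are as labelled.

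The nucleolus is the nuclear body in which RNA polymerase I copies the ribosomal DNA and in which the precursor RNA is folded, modified, cut and joined with ribosomal proteins. Small nucleolar ribonucleoproteins, in which a guide RNA (snoRNA) directs an enzyme, place the modifications: box C/D particles add methyl groups with fibrillarin (FBL), and box H/ACA particles make pseudouridine with dyskerin (DKC1). The small subunit processome then builds the precursor of the small ribosomal subunit, and a separate series of factors builds that of the large subunit. Cancer cells commonly show enlarged nucleoli, and MYC is known to drive many of these genes through the E-box sequence CACGTG.

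Promoters of 6 members are shown because they carry the largest rise by log2 change, other rises, and the falls described below, with and without that E-box. Each run is the 250 bases before the annotated start, read 5′ to 3′ on the strand of the gene from RefSeq on GRCh38.p14. That build differs from the hg19 of the submitters' processing notes, so the sequences were matched by symbol and not by position. Capitals mark CACGTG, which reads the same on both strands.
NOP10 (chr15:34343137-34343386, minus strand): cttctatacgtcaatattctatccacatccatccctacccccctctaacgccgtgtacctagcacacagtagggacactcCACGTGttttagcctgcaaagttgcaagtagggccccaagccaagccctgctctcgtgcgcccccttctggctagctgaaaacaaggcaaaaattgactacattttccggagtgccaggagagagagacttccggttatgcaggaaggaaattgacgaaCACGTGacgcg
EXOSC5 (chr19:41397360-41397609, minus strand): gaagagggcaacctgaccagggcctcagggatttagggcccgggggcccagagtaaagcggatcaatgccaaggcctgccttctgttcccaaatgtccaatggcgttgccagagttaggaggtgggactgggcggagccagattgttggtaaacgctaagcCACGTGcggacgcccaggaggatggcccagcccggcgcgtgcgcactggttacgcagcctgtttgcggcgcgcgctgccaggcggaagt
IMP4 (chr2:130342647-130342896, plus strand): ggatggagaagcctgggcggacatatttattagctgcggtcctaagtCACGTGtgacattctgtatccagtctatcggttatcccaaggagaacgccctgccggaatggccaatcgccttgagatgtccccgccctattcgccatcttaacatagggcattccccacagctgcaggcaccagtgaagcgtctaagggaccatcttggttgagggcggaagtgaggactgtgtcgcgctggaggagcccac
UTP20 (chr12:101279855-101280104, plus strand): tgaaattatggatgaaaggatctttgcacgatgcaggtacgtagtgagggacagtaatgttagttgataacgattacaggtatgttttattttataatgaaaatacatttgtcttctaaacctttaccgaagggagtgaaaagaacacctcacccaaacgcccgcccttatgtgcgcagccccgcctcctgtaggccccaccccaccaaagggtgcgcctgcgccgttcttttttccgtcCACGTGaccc
NOP56 (chr20:2652382-2652631, plus strand): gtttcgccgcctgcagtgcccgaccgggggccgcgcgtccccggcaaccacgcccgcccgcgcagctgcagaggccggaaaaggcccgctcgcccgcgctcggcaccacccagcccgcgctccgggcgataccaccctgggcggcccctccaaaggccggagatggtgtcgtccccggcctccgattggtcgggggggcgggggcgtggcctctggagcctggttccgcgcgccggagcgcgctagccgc
NHP2 (chr5:178153886-178154135, minus strand): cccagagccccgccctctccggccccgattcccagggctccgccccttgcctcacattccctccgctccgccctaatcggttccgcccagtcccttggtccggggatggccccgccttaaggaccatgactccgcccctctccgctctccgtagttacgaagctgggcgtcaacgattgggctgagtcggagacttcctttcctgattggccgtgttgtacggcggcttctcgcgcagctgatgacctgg

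The window from 250 bases before to 50 after the start was in the reference table for 38 members, and 15 of these (39.5%) held CACGTG. Over all 35116 promoters of the reference, 7.26% held it, and over the 7130 tested genes with a promoter 10.7% did. In NOP10 the motif begins 170 and 11 bases before the start, in EXOSC5 89 before and 14 after it, in IMP4 203 before and 15 after it, and in UTP20 10 before it, while NOP56 and NHP2 have no match in this window. The motif was thus present in members that rose (NOP10, IMP4, EXOSC5) and in one that fell (UTP20). Of the 15 members with the motif 11 were higher and 1 lower in the overexpression libraries, and of the 23 without it 10 were higher and 1 lower (all tested genes: 37.4% and 11.9%). After median centring 5 of 15 and 7 of 23 were higher, and 1 of each lower (all tested genes: 24.0% and 19.2%). With equal FPKM sums 4 of 15 and 5 of 23 were higher, and 3 and 5 lower (11.9% and 34.5%). NOLC1, TCOF1, NOP58, RRP12, BOP1, RRS1 and DDX18 had no entry.

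Levels are FPKM, fragments normalized to gene length and to the mapped total of the library, and the depth behind them is unknown. FPKM summed to between 87162 and 88738 in the vector libraries and between 127768 and 128538 in the overexpression libraries. The median log2 change of the 9694 tested genes, overexpression minus vector, was 0.27 (1.20-fold). Directions therefore depend on the scaling. Each log2 change below is that of log2(FPKM + 0.5) as deposited unless a scaling is named or it is called relative. Relative means after subtracting this 0.27, the change of the median gene. Median centring instead brings the median levels of the libraries to the same value, and it left a median log2 change of 0.06. Among markers of the labelled epithelial cell type, KRT18 and the row that joins KRT8 and KRT78 fell by 0.51 and 0.62 on the log2 scale (limma adjusted p = 0.0219 and 0.0096), within 14.82 to 105.38 FPKM, and KRT19 rose from 2.22 to 5.92 FPKM to 22.89 to 25.02 (0.000654). EPCAM and CDH1 reached at most 0.14 and 0.08. Summed levels in vector and overexpression libraries were 122 to 136 and 100.2 to 129 FPKM for 5 epithelial markers (3 reached 1 FPKM) and 201 to 254 and 548 to 637 for 3 mesenchymal markers (2 reached 1 FPKM). In the mesenchymal list VIM rose by 1.34 on the log2 scale (limma adjusted p = 0.000195), ZEB1 did not pass (0.01, 0.975) and CDH2 stayed at or below 0.56 FPKM. VIM made up nearly all of the mesenchymal sum, at 197.85 to 250.45 and 543.43 to 633.62 FPKM. Its log2 change was 0.79 with equal sums and 0.35 with quantile normalization (adjusted p = 0.00133 and 0.0381). With cyclic loess it was 0.26 and did not pass (0.0686). Sums were 189 to 204 and 174 to 198 for 4 fibroblast markers (3 reached 1 FPKM). COL3A1 made up most of the fibroblast sum, at 170.17 to 185.05 and 161.9 to 180.45 FPKM. It did not pass as deposited (limma adjusted p = 0.664) but was called lower after median centring (log2 change -0.25, 0.0219). COL1A1 rose by 1.03 on the log2 scale (limma adjusted p = 0.00913), but did not pass with equal sums (0.0506). COL1A2 fell by 0.47 (limma adjusted p = 0.0339), and DCN reached at most 0.01 FPKM. Sums were 22.7 to 26.1 and 34.0 to 37.9 for 3 immune markers, 0.14 to 0.28 and 0.48 to 0.64 for 3 endothelial markers, and 10.8 to 11.3 and 16.4 to 18.6 for 3 acinar markers. The immune sum is that of a row joining EIF4A1, CD68 and SENP3 and the acinar sum that of a row joining CDC42, CELA3B and CELA3A, so neither can be assigned to the marker, with PTPRC, CD3E, PRSS1 and CPA1 listed at 0 in all libraries. The part of these marker differences in the results below was not tested. In bulk RNA, fewer cells of a kind and less RNA per cell cannot be told apart.

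Of the 45 members, all of which passed the filter of a mean of at least 1 FPKM, 24 rose and 2 fell in the overexpression libraries (limma, Benjamini-Hochberg adjusted p under 0.05). Among all tested genes 37.4% were higher and 11.9% lower. The median log2 change of the members was 0.43, against 0.27 for all tested genes. The groups did not overlap for 33 members, 30 of them with overexpression above vector and 3 below (all tested genes: 60.6%, 44.9% and 15.6%). After each library was centred on its median level, 15 members were higher and 3 lower (all tested genes: 24.0% and 19.2%). With a trend on gene length removed as well, 12 of 39 were higher and 3 lower (22.2% and 16.5%). With libraries scaled to equal FPKM sums, 10 were higher and 10 lower (11.9% and 34.5%), and the members' median log2 change was -0.08, against -0.22 for all tested genes.

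Under the deposited values and 5 other scalings (median centring, equal sums, quantile normalization, cyclic loess, and the length trend), 9 of the 39 members with a known length were higher every time and 2 lower every time (all genes with a length: 10.7% and 11.0%). The 9 were NCL, TCOF1, FBL, NHP2, NOP10, NOC4L, IMP3, IMP4 and NOC2L, and the 2 were NOP56 and UTP20. The members' summed FPKM without the WDR74 row and NPM1, which are the highest, was 415 to 445 in the vector libraries and 646 to 654 in the overexpression libraries. As a share of each library's FPKM sum this was 0.476% to 0.511% and 0.503% to 0.512%, ranges that overlap.

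**Figure D1:**
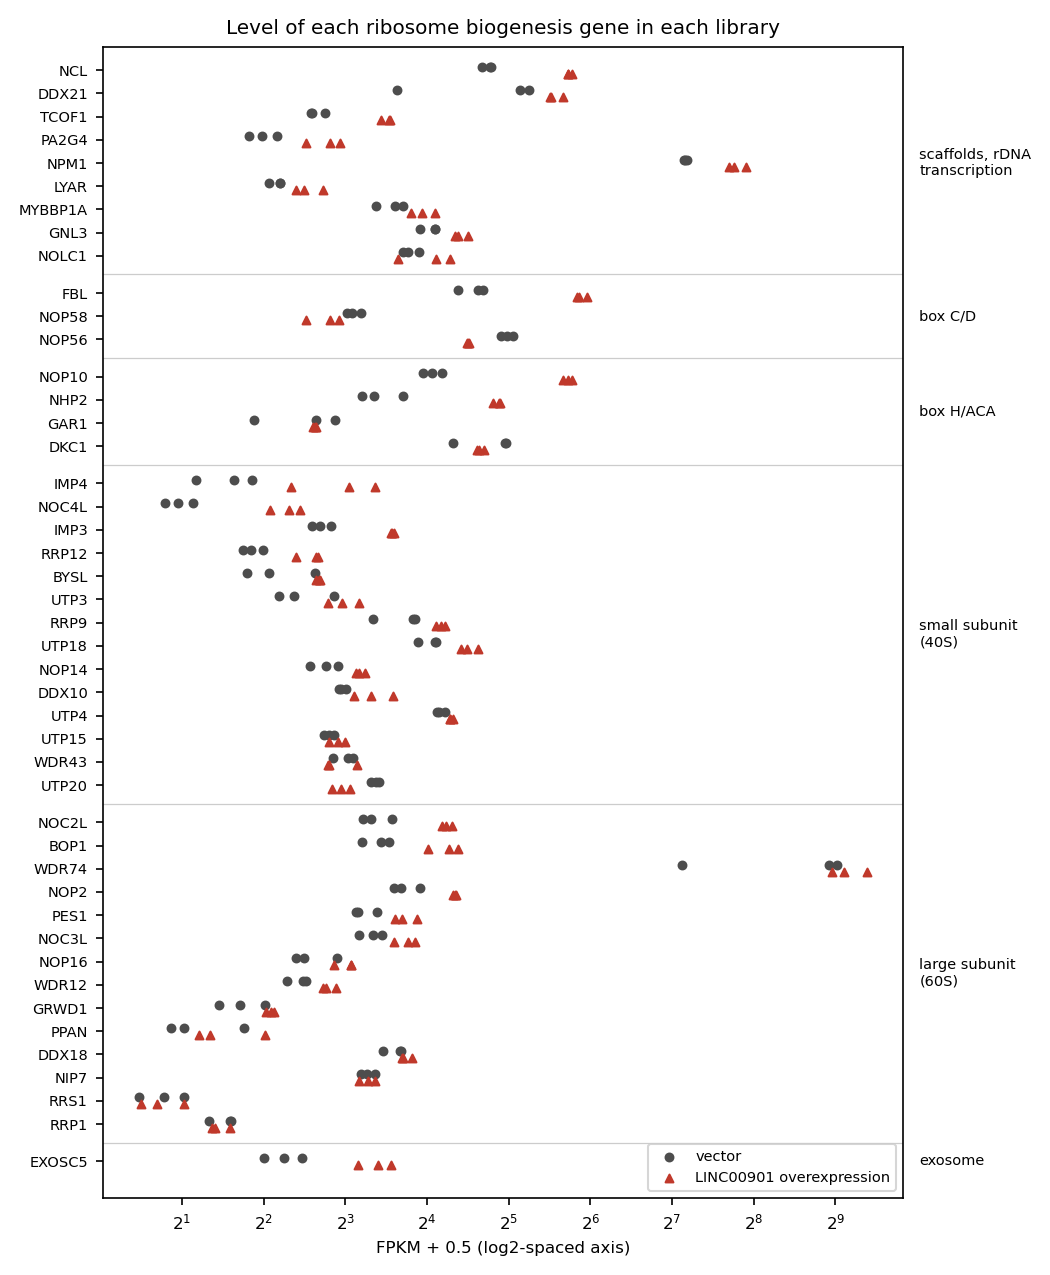
FPKM + 0.5 of each member (rows, grouped by role) on a log2-spaced axis, with 3 vector libraries as circles and 3 overexpression libraries as triangles. NOP10, NHP2 and FBL are separated widely with overexpression higher, NOP56 and UTP20 with overexpression lower, and single vector libraries stand apart for DDX21 and the WDR74 row.

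**Figure D2:**
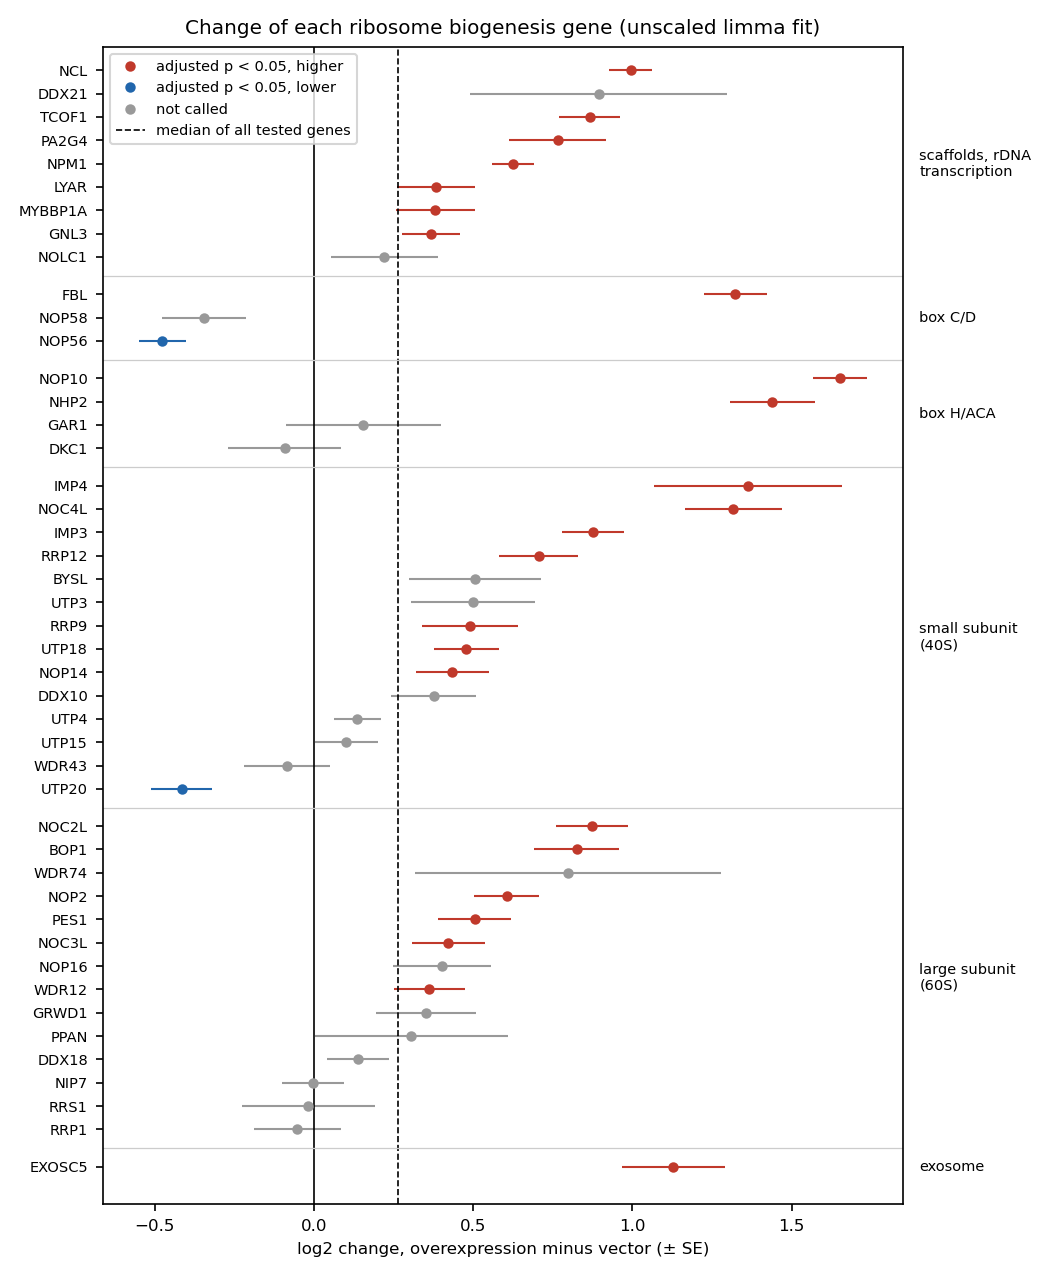
Log2 change of each member in the unscaled limma fit (overexpression minus vector, bars are ± SE), coloured by call. The dashed line is the median of all tested genes at 0.27. The 24 members called higher lie to its right, and NOP56 and UTP20 lie left of 0.

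The 3 members from the core of the box C/D particle split. FBL, the methyltransferase, stood at 24.12, 20.27 and 25.27 FPKM with the vector and at 56.79, 57.43 and 61.64 with overexpression. The groups were far apart, with means of 23.2 ± 2.62 and 58.6 ± 2.63 FPKM (SD, n = 3), a 2.52-fold rise and a log2 change of 1.32 ± 0.10 (SE, limma adjusted p = 0.000182). NOP56, a scaffold of the same particle, went the other way. It stood at 30.98, 29.45 and 32.72 FPKM with the vector and at 22.11, 21.93 and 22.43 with overexpression, so that every overexpression library lay below every vector library. NOP56 fell by 0.48 on the log2 scale (SE 0.07, limma adjusted p = 0.0023), and the means were 31.1 ± 1.64 and 22.2 ± 0.253 FPKM (SD, n = 3). NOP58, the partner scaffold of NOP56, was listed at 7.96, 8.67 and 7.62 FPKM against 7.11, 6.54 and 5.22. The NOP58 groups did not overlap, but its log2 change of -0.35 ± 0.13 (SE) did not pass (limma adjusted p = 0.0651). It was called lower after median centring (log2 change -0.55, adjusted p = 0.0146), with the length trend removed (-0.73, 0.00589) and with equal sums (-0.86, 0.00244). Without overexpression replicate 1 the unscaled adjusted p of NOP58 was 0.0478.

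Ratios of 2 genes within a library do not depend on a factor applied to the whole library, though they do on quantile, loess and length adjustments, which differ between genes. The ratio of FBL to NOP56 was 0.779, 0.688 and 0.772 in the vector libraries and 2.57, 2.62 and 2.75 in the overexpression libraries. The FBL to NOP58 ratio lay between 2.34 and 3.32 with the vector and between 7.99 and 11.8 with overexpression. Both sets of ratios are separated without overlap, while that of NOP56 to NOP58 was 3.40 to 4.29 and 3.11 to 4.30, which overlap. These pairs were chosen after their values were seen and are given without a test.

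Of the 4 box H/ACA core genes 2 rose, 0 fell and 2 did not pass (all tested genes: 37.4% higher and 11.9% lower). Median centring gave 2 higher and 0 lower (24.0% and 19.2%), and equal sums 2 and 1 (11.9% and 34.5%). NOP10, the smallest core protein of the particle, stood at 17.64, 15.01 and 16.23 FPKM with the vector and at 50.32, 54.06 and 52.25 with overexpression. Its means of 16.3 ± 1.32 and 52.2 ± 1.87 FPKM (SD, n = 3) gave the largest log2 change of the 45 members, 1.65 ± 0.08 (SE, limma adjusted p = 6.71e-05). With the length trend removed the NOP10 log2 change was 0.72 (adjusted p = 0.00103). NHP2, another core protein, stood at 12.51, 8.73 and 9.74 FPKM against 29.23, 28.92 and 27.55. It rose 2.77-fold, with a log2 change of 1.44 ± 0.13 (SE, limma adjusted p = 0.000351), and by 0.78 with the length trend removed. DKC1, the pseudouridine synthase, gave overlapping groups of 30.69, 19.38 and 30.44 FPKM against 24.36, 24.05 and 25.41. Its log2 change of -0.09 ± 0.18 (SE) did not pass (limma adjusted p = 0.685). Without vector replicate 2, the low one, it was -0.31 with an adjusted p of 0.0237, and DKC1 was also called lower with equal sums (-0.63, 0.0242), cyclic loess (-0.63, 0.0263) and quantile normalization (-0.61, 0.038). GAR1, the remaining core protein, was listed at 3.19, 5.77 and 6.82 FPKM against 5.59, 5.67 and 5.72, with a log2 change of 0.15 ± 0.24 (SE, limma adjusted p = 0.623). Its sign turned with median centring (-0.05) and without vector replicate 1 (-0.14). The overexpression libraries agreed closely for GAR1 and DKC1, and the wide spread was among the vector libraries.

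Within libraries, the NHP2 to DKC1 ratio was 0.408, 0.45 and 0.320 with the vector and 1.20, 1.20 and 1.08 with overexpression. The NOP10 to DKC1 ratio was 0.533 to 0.775 and 2.06 to 2.25. NOP10 against NHP2, both of which rose, gave 1.41 to 1.72 and 1.72 to 1.90, much closer ranges. The GAR1 to DKC1 ratio overlapped between the groups, at 0.104 to 0.298 and 0.225 to 0.236.

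**Figure D3:**
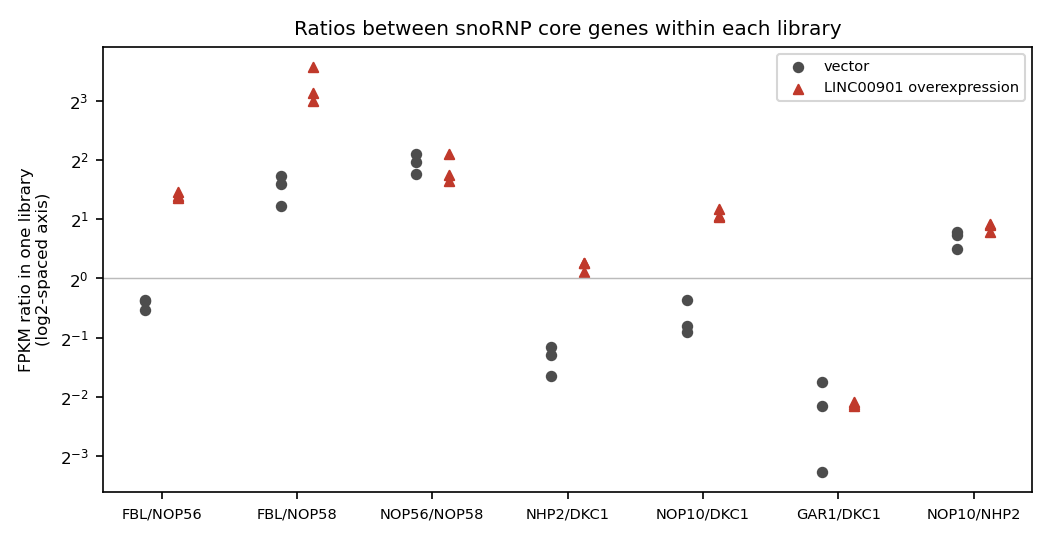
FPKM ratios between snoRNP core genes within each library on a log2-spaced axis, with vector libraries as circles and overexpression libraries as triangles. FBL/NOP56, FBL/NOP58, NHP2/DKC1 and NOP10/DKC1 are higher in every overexpression library, and NOP56/NOP58 and GAR1/DKC1 overlap.

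Of 9 scaffold and ribosomal DNA transcription factors, 7 rose and 0 fell, with a median log2 change of 0.62 (all tested genes: 37.4% and 11.9%, median 0.27). After median centring 4 were higher, with equal sums 2, and under cyclic loess 3 were higher and 1 lower. Nucleolin (NCL), an abundant RNA-binding protein of the nucleolus, stood at 26.91, 25.11 and 27.09 FPKM with the vector and at 54.08, 52.27 and 52.63 with overexpression. The groups were tight and apart, and NCL rose 2.01-fold (log2 change 0.99 ± 0.07 SE, limma adjusted p = 0.000149). TCOF1, the treacle protein that binds RNA polymerase I and its factors, stood at 6.25, 5.56 and 5.48 FPKM against 10.35, 11.14 and 11.21, a log2 change of 0.87 ± 0.10 (SE, limma adjusted p = 0.000643). TCOF1 is the longest of the members with a known length, at 11439 nucleotides of merged exons. Nucleophosmin (NPM1), a histone and ribosome chaperone, had the highest level of any member with a row of its own. It was at 144.53, 142.88 and 140.74 FPKM against 238.5, 207.85 and 215.66, and its log2 change was 0.62 ± 0.07 (SE, limma adjusted p = 0.000537). NPM1 was called lower under cyclic loess (log2 change -0.31, adjusted p = 0.0104) and quantile normalization (-0.28, 0.0133), so its direction depends on the scaling. NPM1 also has processed copies in the genome that can share its reads.

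The row that joins ERBB3, PA2G4 and AC034102, where PA2G4 is a growth-regulated RNA-binding protein, was at 3.45, 3.03 and 4.0 FPKM against 7.14, 6.55 and 5.22. It rose by 0.77 ± 0.15 (SE, limma adjusted p = 0.00627), and its value cannot be assigned to 1 gene. With equal sums it did not pass (log2 change 0.27, adjusted p = 0.173). GNL3 (nucleostemin, a GTP-binding protein) rose by 0.37. MYBBP1A, which binds MYB and represses ribosomal DNA transcription, rose by 0.38 (limma adjusted p = 0.0404), but did not pass without vector replicate 1 (adjusted p = 0.0703) or 2 (0.0993) and without overexpression replicate 2 (0.116) or 3 (0.0964). LYAR, a nucleolar zinc finger protein, also rose by 0.38 (limma adjusted p = 0.0369), and it was called only with all libraries or without overexpression replicate 3 (vector replicates 1, 2 and 3 left out: 0.0616, 0.0616 and 0.0921, overexpression replicates 1 and 2: 0.101 and 0.0733). After median centring the log2 changes of GNL3, MYBBP1A and LYAR were 0.16, 0.17 and 0.17, and none of them passed (adjusted p = 0.181, 0.291 and 0.279). With equal sums they were -0.17, -0.15 and -0.11, so the direction of these small changes depends on the scaling.

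NOLC1, a chaperone of snoRNPs, had the change nearest to the median gene in this group, at 14.42, 13.12 and 12.52 FPKM against 18.92, 12 and 16.74 (limma adjusted p = 0.308). Overexpression replicate 2 lay below every vector library for NOLC1, and without it the log2 change was 0.40 (adjusted p = 0.0333). DDX21, an RNA helicase of RNA polymerase I and snoRNA release, was at 34.62, 37.60 and 11.89 FPKM against 50.43, 44.94 and 45.45. Every DDX21 value with overexpression was higher, but vector replicate 3 lay far below the others and the log2 change of 0.89 ± 0.40 (SE) did not pass (limma adjusted p = 0.108). Without that library the change was 0.37 with an adjusted p of 0.0202.

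Among 14 factors of the small subunit, 7 rose, 1 fell and 6 did not pass, with a median log2 change of 0.48 (all tested genes: 37.4% higher and 11.9% lower). Median centring gave 4 higher and 1 lower (all tested genes: 24.0% and 19.2%), and equal sums 3 and 4 (11.9% and 34.5%). NOC4L, a partner of NOP14, stood at 1.44, 1.24 and 1.70 FPKM with the vector and at 3.72, 4.48 and 4.97 with overexpression. It rose 3.01-fold (log2 change 1.32 ± 0.15 SE, limma adjusted p = 0.000742). IMP4, which joins the U3 snoRNA to its precursor RNA, was at 1.75, 3.13 and 2.61 FPKM against 7.79, 4.55 and 9.83, more widely scattered than NOC4L but without overlap (log2 change 1.36 ± 0.29 SE, limma adjusted p = 0.00878). IMP3, of the same complex, was at 5.52, 6.62 and 5.95 FPKM against 11.59, 11.44 and 11.31, a log2 change of 0.87 ± 0.10 (SE, limma adjusted p = 0.000654). The gap between the IMP3 groups was wide beside the spread in either.

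UTP20, a very large scaffold protein of the processome, fell. It was at 9.87, 10.13 and 9.43 FPKM with the vector and at 7.84, 6.67 and 7.20 with overexpression, with no overlap. UTP20 fell by 0.42 on the log2 scale (SE 0.10, limma adjusted p = 0.0116), and its relative log2 change was -0.68. DDX10, a helicase that releases snoRNAs, had the change nearest to the median gene in this group, at 7.24, 7.10 and 7.55 FPKM against 11.53, 8.15 and 9.45. Its log2 change of 0.38 ± 0.13 (SE) did not pass (limma adjusted p = 0.0531), and without overexpression replicate 2 it was 0.49 with an adjusted p of 0.0258.

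Of the other small subunit factors, RRP12, needed for export of the subunits, rose by 0.71 (limma adjusted p = 0.00396), UTP18, a beta-propeller protein, by 0.48 (0.0079), RRP9, which binds the U3 snoRNA, by 0.49 (0.0334) and NOP14, the partner of NOC4L, by 0.43 (0.0193). The NOP14 call was lost without overexpression replicate 3 (adjusted p = 0.0693), and that of RRP9 without overexpression replicates 1, 2 or 3 (0.0653, 0.0903 and 0.0838). The RRP9 change was 0.32 without vector replicate 2, its lowest library. UTP3, UTP4, UTP15, WDR43 and BYSL did not pass, with log2 changes of 0.50, 0.14, 0.10, -0.08 and 0.51. With equal sums UTP4, UTP15 and WDR43 were called lower, at -0.40, -0.41 and -0.60. UTP3 and BYSL each had 1 high vector library: without vector replicate 3 the UTP3 change was 0.69 (adjusted p = 0.0143), and without vector replicate 1 that of BYSL was 0.74 (0.00646). After median centring RRP12 passed (adjusted p = 0.0177, but 0.188 with equal sums, log2 change 0.22), whereas UTP18, RRP9 and NOP14 did not (0.0692, 0.165 and 0.138). With equal sums the log2 changes of UTP18, RRP9 and NOP14 were -0.05, -0.04 and -0.08, so their direction depends on the scaling.

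Large subunit factors showed 6 rises, 0 falls and 8 members that did not pass among 14, with a median log2 change of 0.38, and the share that rose is near the 37.4% of all tested genes. Median centring gave 3 higher and 0 lower (all tested genes: 24.0% and 19.2%), and equal sums 1 and 3 (11.9% and 34.5%). NOC2L, a nucleolar assembly factor that also binds p53, was at 11.35, 9.43 and 8.78 FPKM against 17.62, 19.27 and 18.26, a 1.87-fold rise (log2 change 0.87 ± 0.11 SE, limma adjusted p = 0.00112). BOP1 and PES1 form a complex with WDR12 that is needed to process the large subunit RNA. BOP1 was at 8.74, 11.08 and 10.31 FPKM against 15.60, 20.28 and 18.72, and rose by 0.82 ± 0.13 (SE, limma adjusted p = 0.00273). PES1 was at 8.23, 8.45 and 9.96 FPKM against 12.46, 11.75 and 14.18, and rose by 0.50 ± 0.12 (SE, limma adjusted p = 0.0111). WDR12 was at 5.08, 5.26 and 4.37 FPKM against 6.92, 6.29 and 6.10, and rose by 0.36 ± 0.11 (SE, limma adjusted p = 0.0321). All 3 genes of the complex were thus higher in every overexpression library, WDR12 least. WDR12 passed without vector replicate 2 but not without vector replicate 1 (adjusted p = 0.052) or 3 (0.0778) and without overexpression replicate 1 (0.0935), 2 (0.0689) or 3 (0.0656). After median centring BOP1 passed (adjusted p = 0.0111), and PES1 (0.0687) and WDR12 (0.303) did not. With equal sums BOP1 did not pass either (log2 change 0.30, adjusted p = 0.108). With equal sums the PES1 and WDR12 log2 changes were -0.02 and -0.14, so their direction depends on the scaling. Ratios of WDR12 to PES1 overlapped between the groups, at 0.439 to 0.622 and 0.430 to 0.555, as did those of BOP1 to PES1, at 1.04 to 1.31 and 1.25 to 1.73.

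The row that joins CHD4 and NOP2, where NOP2 is an RNA methyltransferase of the large subunit and CHD4 a chromatin remodeler, was at 12.36, 11.62 and 14.64 FPKM against 19.48, 19.94 and 19.81. It rose by 0.60 ± 0.10 (SE, limma adjusted p = 0.00334) and cannot be split between the 2 genes. Its call was lost with equal sums (log2 change 0.07, adjusted p = 0.57), cyclic loess (0.18, 0.195) and quantile normalization (0.18, 0.205). NOC3L, a partner of NOC2L, rose by 0.42 (limma adjusted p = 0.0216), but not without vector replicate 3 (0.055) or overexpression replicates 1 (0.0662) or 3 (0.0691), and with equal sums its log2 change was -0.10. NOP16, WDR74, RRP1, RRS1, PPAN, GRWD1, NIP7 and DDX18 did not pass. NIP7, an RNA-binding assembly factor, was nearly the same in both groups as deposited, at 9.13, 9.82 and 8.62 FPKM against 9.18, 9.81 and 8.52. Equal sums, by contrast, gave NIP7 a log2 change of -0.52 (adjusted p = 0.00575), and RRP1 and DDX18 were then called lower too, at -0.50 and -0.39. NOP16 and the row that joins CYTH2, GRWD1, KCNJ14 and AC008403 had log2 changes of 0.40 and 0.35, which became 0.55 (adjusted p = 0.0143) and 0.50 (0.0282) without vector replicate 3.

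Among the remaining joined rows, that of PPAN, PPAN-P2RY11 and P2RY11, with the change nearest to the median gene in this group, was at 2.88, 1.54 and 1.32 FPKM against 1.81, 3.55 and 2.03 (log2 change 0.31 ± 0.30 SE, limma adjusted p = 0.432). The row of RRS1, VXN, ADHFE1 and AC009879 was the lowest of all, between 0.89 and 1.54 FPKM. WDR74 and TEX54 share the highest row, at 138.87, 483.44 and 519.33 FPKM against 498.71, 668.77 and 551.05, with vector replicate 1 far below the others. Its log2 change of 0.80 ± 0.48 (SE) did not pass (limma adjusted p = 0.207), and its sign turned with cyclic loess (-0.31) and quantile normalization (-0.23). In GENCODE 29 the gene RNU2-2P, annotated as a small nuclear RNA, overlaps WDR74, and the part of its reads in this row was not tested. All other members lay below 239 FPKM in every library.

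EXOSC5, a core subunit of the RNA exosome that trims ribosomal RNA precursors, was at 4.26, 3.51 and 5.06 FPKM with the vector and at 8.40, 10.05 and 11.31 with overexpression. It rose 2.32-fold (log2 change 1.13 ± 0.16 SE, limma adjusted p = 0.00165), with the groups well apart. With the length trend removed its log2 change was 0.46 (adjusted p = 0.0519).

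Length went with the change among members as it did among all genes. Over the 39 members with a merged exon length in GENCODE 29, from 554 nucleotides in NOP10 to 11439 in TCOF1, Pearson's r between log2 length and log2 change was -0.46 (Spearman's rho -0.40). Over the 8847 tested genes with a length, it was -0.30 (rho -0.33). These correlations are across genes of the same 6 libraries, and genes are not independent replicates. Members were somewhat shorter than tested genes, with medians of 3970 and 5134 nucleotides, and higher in level, with a median of 8.74 FPKM against 4.99.

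**Figure D4:**
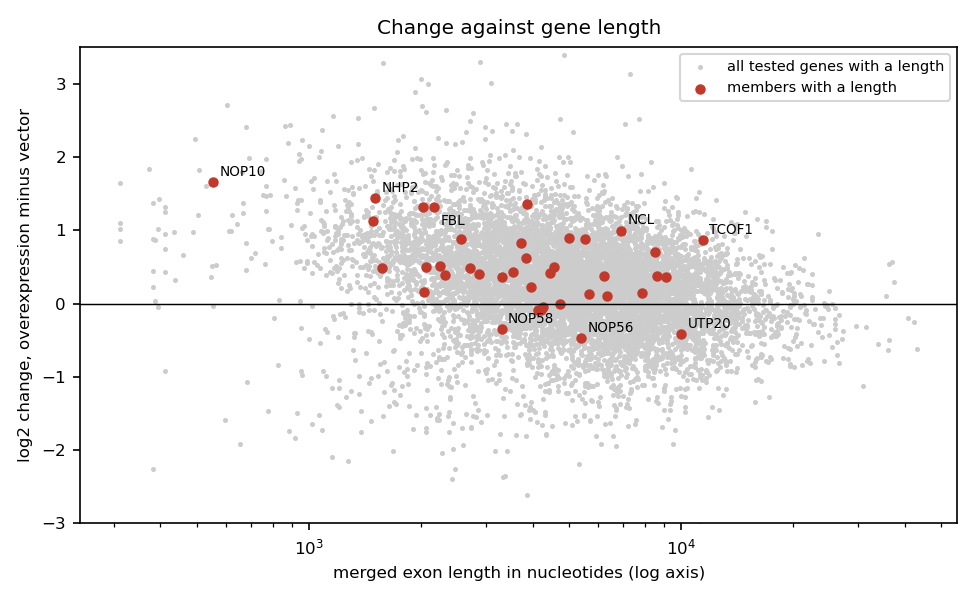
Log2 change (overexpression minus vector) against merged exon length on a log axis for tested genes with a length (grey) and the 39 members with one (red). Short genes tend to lie higher, and NOP10 is the shortest member. The vertical axis ends at -3 and 3.5, which leaves 8 genes outside.

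Several members carry snoRNA genes in their introns. By GENCODE 29, NCL, GNL3, NOP56, NOP58, DKC1, WDR43 and PPAN hold at least 1 annotated snoRNA gene on the same strand within the gene. Of these 7 members 2 were higher and 1 lower, with a median log2 change of -0.08. Of the 38 others 22 were higher and 1 lower, with a median of 0.49 (all tested genes: 37.4% and 11.9%, median 0.27). After median centring 1 of the 7 was higher and 2 lower, and 14 of the 38 higher and 1 lower (24.0% and 19.2%). With equal sums 1 of the 7 was higher and 4 lower, and 9 of the 38 higher and 6 lower (11.9% and 34.5%). The counts thus depend on the scaling. As deposited, NCL and GNL3 were the snoRNA hosts that rose. This split was chosen after the values were seen and is given without a test.

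Other genes of the pathway were listed from general knowledge, with earlier results of these data known. They gave 127 tested genes, 15 of them in joined rows. Of the 127, 55 were higher and 13 lower, with a median log2 change of 0.32, close to all tested genes (37.4%, 11.9% and 0.27). The lower ones numbered 6 without overexpression replicate 2 and 3 without overexpression replicate 3. Median centring gave 32 higher and 20 lower (all tested genes: 24.0% and 19.2%). Removal of the length trend gave 25 and 19 of 112 (22.2% and 16.5%), and equal sums 10 and 40 (11.9% and 34.5%). Their balance thus depends on the scaling. Of 45 genes listed as further small subunit factors 24 were higher and 3 lower (all tested genes: 37.4% and 11.9%). These counts became 12 and 6 after median centring (24.0% and 19.2%) and 2 and 10 with equal sums (11.9% and 34.5%). NOB1, the nuclease that makes the final cut of the small subunit RNA, rose from 13.8 ± 1.37 to 31.1 ± 1.91 FPKM (SD, n = 3, limma adjusted p = 0.000274). KRR1, a processome factor, fell from 5.91 ± 0.36 to 3.62 ± 0.476 FPKM (SD, n = 3, limma adjusted p = 0.00512). NOL9, a polynucleotide kinase of large subunit RNA processing, was counted in this list all the same. It fell from 16.9 ± 0.195 to 12.9 ± 1.30 FPKM (SD, n = 3, limma adjusted p = 0.0151, and 0.0587 without overexpression replicate 3).

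Of 52 further large subunit factors 21 were higher and 6 lower (all tested genes: 37.4% and 11.9%). With median centring 15 were higher and 10 lower (24.0% and 19.2%), and with equal sums 6 and 21 (11.9% and 34.5%). WDR18, of the complex that removes an internal spacer, rose from 3.35 ± 0.332 to 8.47 ± 0.622 FPKM (SD, n = 3, limma adjusted p = 0.000341). SBDS, the Shwachman-Diamond syndrome protein, was at 28.11, 4.25 and 5.79 FPKM against 42.09, 37.10 and 39.11 (limma adjusted p = 0.0296). The SBDS call held without vector replicate 1, the high one, and was lost without each other library (0.080 and 0.0865 for vector replicates 2 and 3, and 0.0781, 0.0696 and 0.0694 for overexpression replicates 1 to 3). SBDS has a near-identical pseudogene that can share its reads. GNL3L, a relative of GNL3, fell from 9.07 ± 1.26 to 5.86 ± 1.01 FPKM (SD, n = 3, limma adjusted p = 0.0177, and 0.0525 or 0.0595 without overexpression replicate 1 or 3). DDX51, a helicase, fell from 1.87 ± 0.0416 to 1.10 ± 0.155 FPKM (SD, n = 3, limma adjusted p = 0.0122, and 0.0543 without overexpression replicate 3).

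The exosome and its cofactors had 6 of 13 genes higher and 0 lower (all tested genes: 37.4% and 11.9%). After median centring 1 was higher and 0 lower (24.0% and 19.2%), and with equal sums 1 and 3 (11.9% and 34.5%). The row that joins AARS and EXOSC6 rose from 10.5 ± 0.085 to 20.8 ± 0.358 FPKM (SD, n = 3, limma adjusted p = 0.000195), and its value cannot be assigned to 1 gene. EXOSC4, another core subunit, was at 3.53, 6.22 and 6.39 FPKM against 8.02, 9.82 and 7.77 (limma adjusted p = 0.0464), and its call held only without vector replicate 3 (otherwise 0.0522 and 0.0501 without vector replicates 1 and 2, and 0.0869, 0.132 and 0.078 without overexpression replicates 1 to 3). Without vector replicate 1 its log2 change of 0.65 was 0.40.

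Of 10 snoRNP assembly factors 3 were higher and 2 lower (all tested genes: 37.4% and 11.9%). Median centring also gave 3 and 2 (24.0% and 19.2%), and equal sums 1 and 4 (11.9% and 34.5%). RUVBL2, an ATPase of the assembly chaperone, rose from 19.3 ± 1.46 to 39.6 ± 0.385 FPKM (SD, n = 3, limma adjusted p = 0.000203). NAF1, which stands in for GAR1 during H/ACA assembly, fell from 3.84 ± 0.466 to 2.56 ± 0.330 FPKM (SD, n = 3, limma adjusted p = 0.0221). ZNHIT6, of box C/D assembly, fell from 8.97 ± 0.277 to 7.07 ± 0.672 (SD, n = 3, limma adjusted p = 0.033). Both calls were lost without any of several libraries. NAF1 had adjusted p of 0.0599 and 0.0607 without vector replicates 1 and 2 and 0.0675 and 0.0558 without overexpression replicates 2 and 3. ZNHIT6 had 0.0518, 0.0735 and 0.0743 without vector replicates 1 to 3 and 0.0946 and 0.0967 without overexpression replicates 2 and 3.

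RNA polymerase I initiation factors showed 1 of 7 higher and 2 lower (all tested genes: 37.4% and 11.9%). Median centring left 1 and 2 (24.0% and 19.2%), and equal sums 0 and 2 (11.9% and 34.5%). TAF1C, a subunit of the promoter selectivity factor, fell from 3.95 ± 0.358 to 2.95 ± 0.020 FPKM (SD, n = 3, limma adjusted p = 0.0296). TAF1D, of the same factor, fell from 13.9 ± 0.446 to 11.2 ± 0.598 (SD, n = 3, limma adjusted p = 0.0217). TAF1C did not pass without vector replicate 2 (adjusted p = 0.0681) and overexpression replicates 1, 2 and 3 (0.0717, 0.0703 and 0.0864), nor did TAF1D without vector replicate 3 (0.0538) and overexpression replicates 2 and 3 (0.0578 and 0.0833).

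**Figure D5:**
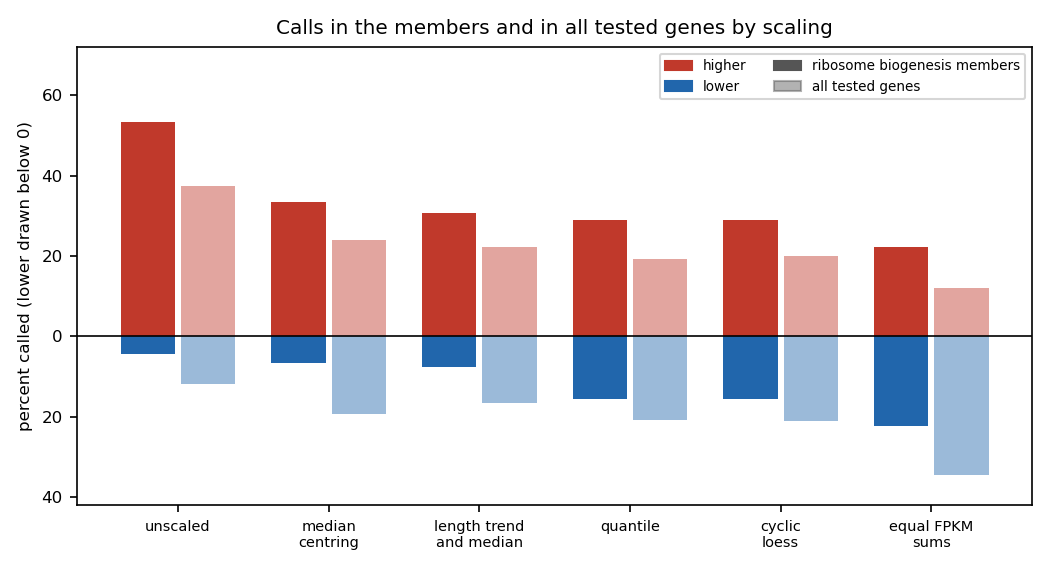
Percent of the members (dark) and of all tested genes (light) called higher (red, above 0) and lower (blue, below 0) under 6 scalings. The share of members called higher goes from 24 of 45 unscaled to 10 of 45 with equal FPKM sums, and the light bars move the same way.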

How the data were processed

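The 6 RNA sequencing libraries, 3 per group, were measured as gene levels. Per the file headers, the values the authors deposited are FPKM, 1 column per library. Per the submitters' processing notes, the tools were HISAT2, FastQC and cutadapt and the build was hg19. The counting tool, strand handling and tool versions were not given in the sources used here. Of 18268 rows, 990 join several names, among them those of 6 members. Depth is unknown: ratios of low FPKM values fell no further than 0.1 log2 from a power of 2 in 23.3% of cases with the vector (383 rows) and 22.9% with overexpression (560 rows), so no whole reads were recovered.

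Rows with a mean of at least 1 FPKM (9694) were transformed to log2(FPKM + 0.5) and fitted together with limma 3.58.1 (R 4.3.3, intensity trend, no block), with Benjamini-Hochberg adjustment over all rows and a threshold of 0.05. For low genes the log2 change is an understatement. Folds are ratios of mean FPKM. Lengths came from GENCODE 29 by symbol (91.3% of tested rows). Simulated data with known changes were used to check the fit. Python 3.11.15 did the rest.

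Members and lists were chosen with earlier results of these data known. Values in every library are given for members that fell, for up to 4 per role that passed without overlap of the groups, ranked by absolute relative change, and for the member nearest to the median gene. From each pathway list up to 2 genes by the same ranking and up to 2 that fell are named. Other members named with values were chosen after these were seen. Alternatives were other pseudocounts, filters, scalings, limma options, a stricter threshold, a replicate block, joined rows left out, and each library left out. One planned marker gene is not reported here.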

Additional observations from a re-analysis of the deposited data

How the results depend on the processing

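Pseudocounts of 1 or 0.1, no filter, limma without trend or robust, and leaving out joined rows kept the counts of higher and lower genes, members and pathway genes within 1.5 times. Other scalings and a stricter threshold moved them further. Over all tested genes, higher and lower calls were 2331 and 1866 with median centring, 1155 and 3345 with equal FPKM sums, 1865 and 2024 with quantile normalization, 1942 and 2034 with cyclic loess, and 1963 higher with the length trend removed, against 3621 and 1152. A mean of at least 5 FPKM gave 2396 and 422, where fewer genes were tested, and a threshold of 0.01 gave 2287 and 594. Members called higher numbered 15, 10, 13, 13 and 12 under those 5 scalings in that order, and members called lower 10 with equal sums, 7 with quantile normalization, 7 with cyclic loess and 1 at the threshold of 0.01. Other pathway genes called higher numbered 32, 10, 23, 26 and 25 under the 5 scalings and 34 at 0.01, and lower ones 20, 40, 21 and 22 under the first 4 scalings and 1 at 0.01.

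Leaving out each library gave 2768 to 3371 higher and 812 to 1004 lower genes, 19 to 25 higher and 2 to 3 lower members, and 39 to 48 higher and 3 to 11 lower pathway genes. Of 26 members called, 20 kept their call without any 1 library and 6 did not (MYBBP1A, LYAR, RRP9, NOP14, WDR12 and NOC3L), while 9 of 19 uncalled members gained one. The matching shares over all tested genes were not counted, so these counts cannot be called particular to the members. With the replicate number as a block, 3262 genes were higher and 965 lower, 19 members higher and 2 lower, and 48 pathway genes higher and 7 lower. Deviations of same-numbered libraries from their group means correlated at -0.037, -0.0057 and -0.0050. These values cannot show whether such libraries shared a culture or day, which is not given in the sources used here.

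Among genes named by rule, signs turned as follows, and those of several other members, given beside their values above, turned too. NPM1 was -0.28 with quantile normalization and -0.31 with cyclic loess. NOLC1 was -0.31 with equal sums, -0.18 with quantile normalization, -0.19 with cyclic loess and -0.0886 with the length trend removed. GAR1 was -0.0536 with median centring, -0.35 with equal sums, -0.0678 with quantile normalization, -0.0546 with cyclic loess and -0.39 with the length trend removed, and it ranged from -0.14 without vector replicate 1 to 0.36 without vector replicate 3. With equal sums DDX10 was -0.14, PES1 -0.0192 and the PPAN row -0.13, and with the length trend removed EXOSC4 was -0.0313. Causes were not tested. Depth is unknown, so counting error cannot be given for any value.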
